A study of Mus musculus with 2 samples.

Results

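The tumor necrosis factor (TNF) superfamily, its ligands and its receptors, was examined at 2 early steps of B cell development in the mouse, the pre-pro-B and the pro-B stage. Members were chosen by name, as protein-coding RefSeq transcripts of genes called *Tnfsf* or *Tnfrsf* with a number and of *Tnf*, *Lta*, *Ltb*, *Ltbr*, *Fas*, *Fasl*, *Cd27*, *Cd70*, *Cd40*, *Cd40lg*, *Ngfr*, *Eda* and *Edar*. This rule found 44 genes, 18 ligands and 26 receptors, among 20250 named protein-coding genes, and the 44 genes have 64 transcripts. RNA-seq covered 1 library of *Ebf1* -/- pre-pro-B cells, which stop before B lineage specification, and 1 library of *Rag2* -/- pro-B cells, which are committed but cannot rearrange immunoglobulin genes, both on a C57BL/6 background. The *Ebf1* -/- cells came from female embryonic liver and were grown with Il-7, Scf and Flt3l, and the *Rag2* -/- cells came from male adult bone marrow and were grown with Il-7 alone, so that genotype, sex, age, tissue and cytokines cannot be told apart from the cell type. Both were cultured on OP-9 stromal cells, from which they were washed off before RNA was extracted. With 1 library per cell type no difference has a replicate check, and no test between the cell types was made.

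Ligands of the TNF superfamily are mostly trimeric membrane proteins, some of which proteases release from the cell surface. They cluster receptors that either carry a death domain, and can recruit Fadd and Caspase-8, or bind TRAF adaptors, which lead to NF-kB and MAP kinase signaling. In the lymphoid system the family is known for survival, costimulation and the formation of lymphoid organs, and BAFF (*Tnfsf13b*) with its receptor *Tnfrsf13c* keeps maturing B cells alive.

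Values are in FPKM (fragments per kilobase of transcript, scaled by the number of mapped reads), summed over the transcripts of a gene. They are per length and can be compared between genes. Each transcript also has the 95% confidence interval that Cuffdiff derived from its model, given in parentheses. The labels give about 90 M single-end reads of 97 bp per library, at which an FPKM of 1 on a transcript of 1 kb stands for at most about 90 reads. FPKM carry no counts, so the exact depth behind a value is unknown. A gene was called when log2 of pro-B FPKM plus 1 over pre-pro-B FPKM plus 1, so with a pseudocount of 1, was at least 1 or at most -1, which is 2-fold. Only genes with 1 FPKM or more in either library were counted. This scale understates the change of weakly expressed genes. Because these are bulk libraries, fewer cells of a type and less RNA per cell cannot be told apart.

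Most expressed members were lower in pro-B cells. In the pre-pro-B library 20 of the 44 members had 1 FPKM or more, and in the pro-B library 13 did. Of the 21 members at this level in at least 1 library, 11 (52.4%) were lower in pro-B cells by 2-fold or more, where 19.1% of all 10528 genes passing the same filter were lower. Only *Tnfrsf19* and *Tnfrsf13c* (9.52%) were at least 2-fold higher, against 12.2% of all genes. The median log2 change of these 21 members was -1.12, and that of all genes was -0.14. Of the 21, 8 passed the filter through the pre-pro-B library alone and 1 through the pro-B library alone, so the filter itself favoured genes that differ, and these counts are a description. Among the 12 members at a level of at least 1 in both libraries, 4 were at least 2-fold lower and 1 was higher, which is 33.3% and 8.33%, against 11.3% and 10.4% of 8852 genes. The other 23 members stayed below an FPKM of 1 in both libraries and 6 of them, *Cd40lg*, *Cd70*, *Edar*, *Tnfrsf8*, *Tnfsf13* and *Tnfsf18*, were listed at 0 in both. The rest, *Cd40*, *Eda*, *Fasl*, *Lta*, *Ltbr*, *Ngfr*, *Tnfrsf10b*, *Tnfrsf11a*, *Tnfrsf11b*, *Tnfrsf12a*, *Tnfrsf17*, *Tnfrsf23*, *Tnfsf12*, *Tnfsf13b*, *Tnfsf14*, *Tnfsf15* and *Tnfsf4*, reached at most 0.939. An exact 0 in such a list can be a failed estimate, so no fold is given against it. All 64 member transcripts had the quantification status OK, and the calls of *Ltb* and *Tnfrsf25* as lower rest on a listed 0.

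**Figure D1:**
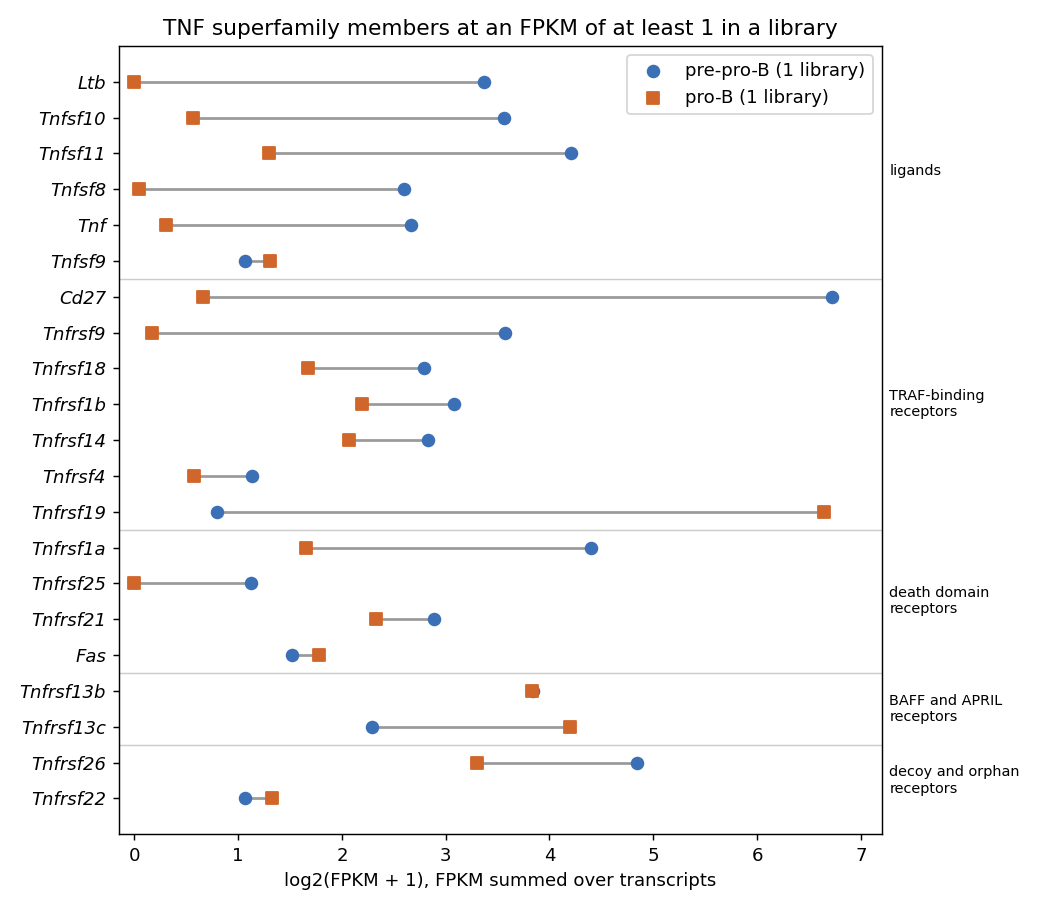
Level of each member that reached 1 FPKM in a library, as log2(FPKM + 1) on the horizontal axis, for the pre-pro-B library (circles) and the pro-B library (squares), grouped by role. Most squares lie to the left of their circle, and the squares of *Tnfrsf19* and *Tnfrsf13c* lie to the right of theirs.

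The libraries themselves were checked against markers. *Pax5*, the B lineage commitment factor, was higher in pro-B cells by 2-fold or more (FPKM 1.13 in the pre-pro-B and 239 in the pro-B library), and the progenitor genes *Kit*, *Flt3* and *Cd34* were lower. The targeted gene *Ebf1* had an FPKM of 64.0 in the library from *Ebf1* -/- cells and of 273 in pro-B cells. *Rag2* had 34.5 in pre-pro-B cells and 22.9 in the library from *Rag2* -/- cells. Each was thus lower in its own null library but not at 0, and an FPKM over the whole transcript does not show which exons the reads came from. Markers of other cells also differed. The summed FPKM of 8 T and NK cell genes was 65.1 in the pre-pro-B and 3.51 in the pro-B library. All 5 that reached a level of at least 1 were lower in pro-B cells by 2-fold or more, against 19.1% of all genes. Only 1 of the 5 reached this level in pro-B cells. *Cd3g* at 36.8 and 0.0351 gave most of the pre-pro-B sum and *Klrb1c* had 18.3 and 3.37, while *Cd3e* stayed at 0.239 and 0.102. The sum over 4 dendritic cell genes was 274 and 1.19. All 3 that reached a level of at least 1 were lower, and 0 of them reached it in pro-B cells. *Ccr9* at 212 and 0.661 gave most of the pre-pro-B sum and *Siglech* had 54.3 and 0.236, while *Xcr1* had 0.0439 in pre-pro-B cells. The sum over 7 measured myeloid genes was 61.0 and 6.52. All 3 that reached a level of at least 1 were lower, and 1 of them reached it in pro-B cells. *Elane* and *Ctsg* were listed at 0 in both. Most of the pre-pro-B sum was *Mpo*, at 35.7 and 0.122. The 11 stromal genes summed to 20.7 and 12.5. Most of the pre-pro-B sum was *Pdgfrb*, which was lower in pro-B cells by 2-fold or more, at 15.9 and 0.377. *Col1a2* and *Cxcl12* were higher in pro-B cells by 2-fold or more, while *Dcn* was listed at 0 in both. The part of such cells in the results on the superfamily was not tested.

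Most ligands were scarce in both libraries, and 12 of 18 stayed below 1 FPKM. Of the 18, 6 reached a level of at least 1 in pre-pro-B cells and 2 did in pro-B cells. Of these 6, 5 were lower in pro-B cells by 2-fold or more and 0 were higher, against 19.1% and 12.2% of all genes, and the median log2 change was -2.73, against -0.14. Of the 5, *Ltb*, *Tnf*, *Tnfsf8* and *Tnfsf10* passed the filter through the pre-pro-B library alone, so the count and the median describe members that the filter selected. *Tnfsf11* encodes RANKL, the cytokine that drives osteoclast formation. It was the most abundant ligand, at 17.5 FPKM in the pre-pro-B library (2.78 to 32.2) against 1.46 in the pro-B library (0 to 3.08), an 11.9-fold difference whose intervals overlapped. *Tnfsf10*, which encodes the death ligand TRAIL, gave 10.8 FPKM in pre-pro-B cells (1.68 to 19.9) and 0.476 FPKM in pro-B cells (0 to 1.28), 22.7-fold lower in pro-B cells and with intervals that did not overlap. *Tnfsf8*, the ligand of CD30, gave 5.05 FPKM in pre-pro-B cells (0.0709 to 14.0) and 0.0329 FPKM in pro-B cells (0 to 0.142), a 154-fold difference. *Tnfsf9*, the ligand of 4-1BB, was the exception, with 1.10 in the pre-pro-B and 1.48 in the pro-B library, a log2 change of 0.24. The highest of the ligands below 1 was *Tnfsf14* (LIGHT), at 0.939 in pre-pro-B cells and listed at 0 in pro-B cells. *Tnfsf4*, the ligand of OX40, was at 0 in the pre-pro-B list and at 0.620 FPKM in the pro-B list.

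*Ltb*, *Tnf* and *Lta* lie side by side on chromosome 17 of mm9, within 10.9 kb (35331384 to 35342296). *Ltb* and *Lta* encode the chains of membrane lymphotoxin, which shapes lymph nodes and spleen. *Ltb* stood at 9.31 FPKM in the pre-pro-B library (0 to 19.7) and was listed at 0 in pro-B cells. *Tnf* gave 5.36 FPKM in pre-pro-B cells (0.0488 to 13.9) and 0.239 FPKM in pro-B cells (0 to 0.855), 22.4-fold lower in pro-B cells. *Lta*, below the level of 1, had 0.213 (0 to 0.743) and was listed at 0 in pro-B cells. All 3 genes of the cluster thus had their higher value in pre-pro-B cells. For *Ltb* and *Lta* this rests on a listed 0, and none of the 3 had intervals apart.

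Across the genome, 22 of the 44 members lie in 9 groups of neighbours no more than 200 kb apart. On chromosome 6 (125182640 to 125312502) *Cd27* and *Tnfrsf1a* were both lower in pro-B cells by 2-fold or more, while *Ltbr* between them stood at 0.0786 FPKM in the pre-pro-B and 0.0159 in the pro-B library. On chromosome 7 (150793568 to 150871777) *Tnfrsf26* was lower, *Tnfrsf22*, at 1.09 FPKM in pre-pro-B cells, was 1.38-fold higher in pro-B cells, and *Tnfrsf23* had 0.306 and 0.191. On chromosome 4 (155387952 to 155403004) *Tnfrsf4*, which encodes the costimulatory receptor OX40, had an FPKM of 1.20 and 0.490. Its neighbour *Tnfrsf18*, which encodes GITR, had 5.92 and 2.18.

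The receptors that bind TRAF adaptors held the most extreme values in either direction. *Cd27*, a costimulatory receptor present on lymphoid-primed progenitors, was the most abundant member in pre-pro-B cells. It stood at 105 FPKM in the pre-pro-B and 0.579 in the pro-B library, 181-fold lower, and its log2 change of -6.06 ranked 30 from the bottom among 10528 genes. Its main transcript, NM_001033126, had intervals of 5.44 to 200 and of 0 to 2.90, which did not overlap. *Tnfrsf9*, which encodes the costimulatory receptor 4-1BB, stood at 10.9 FPKM in the pre-pro-B and 0.124 in the pro-B library, 88.3-fold lower. *Tnfrsf1b*, the receptor for TNF that has no death domain, had 7.44 and 3.58, a log2 change of -0.88, and *Tnfrsf14* (HVEM) had 6.10 and 3.20, a log2 change of -0.76. *Cd40*, *Ltbr*, *Tnfrsf8*, *Tnfrsf11a* and *Tnfrsf12a* stayed below 1 in both libraries.

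*Tnfrsf19* encodes TROY, a receptor without a death domain that is best known from skin and the nervous system. It stood at 0.740 FPKM in the pre-pro-B and 99.3 in the pro-B library, 134-fold higher, which made it the most abundant member in pro-B cells. Its log2 change of 5.85 ranked 29 from the top among 10528 genes. Both of its transcripts were higher in pro-B cells. NM_013869 gave 0.341 FPKM in pre-pro-B cells (0 to 1.20) and 81.2 FPKM in pro-B cells (2.98 to 168), with intervals apart, and NM_001164155 had 0.399 (interval 0 to 1.42) and 18.1 (interval 0 to 65.0), with overlap. The gene lies on chromosome 14 of mm9 (61582671 to 61665692).

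Of the 3 receptors for BAFF, APRIL or both, 2 reached a level of at least 1. Of these, 1 was higher in pro-B cells by 2-fold or more, where 12.2% of all genes were. *Tnfrsf13c*, which encodes the BAFF receptor (chromosome 15, 82052174 to 82054790), gave 3.90 FPKM in the pre-pro-B library (0 to 9.29) against 17.4 in the pro-B library (0.705 to 35.1), 4.46-fold higher, with overlapping intervals. *Tnfrsf13b*, which encodes TACI, had an FPKM of 13.3 in both libraries (intervals 0.158 to 32.4 and 0.0527 to 34.1). *Tnfrsf17*, which encodes the plasma cell receptor BCMA, had 0.532 in pre-pro-B cells and was listed at 0 in pro-B cells. Their ligands were scarce in both libraries, with *Tnfsf13b* at 0.0446 and 0.0359 and *Tnfsf13* listed at 0, although reads of *Tnfsf12* and *Tnfsf13* overlap with those of a read-through transcript and could be divided among them.

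Sequences just before the transcription starts are shown for the members that were higher in pro-B cells and for *Ltb*. *Ltb*, a known target of NF-kB, was chosen because its window matched the NF-kB consensus. *Tnfrsf9* matched as well, but outside the longest stretch without an annotated exon, so it is not printed. RefSeq promoter sequences (250 bases before the start, from the GRCm38.p6 table) were found for 34 of the 44 members, and those printed were placed on mm9 by exact match, at 1 site each. Capitals mark the E-box CAGGTG on either strand (CACCTG read from the other strand), a site of the class bound by E proteins such as E2a, or, in *Ltb*, a match to the NF-kB consensus. No marked site overlaps another. The window of *Ltb* stops where its annotated exon begins, so its CAGGTG, which lies beyond, is not shown, and no printed base lies in an annotated exon.

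Tnfrsf19, chr14:61665693-61665942, minus strand: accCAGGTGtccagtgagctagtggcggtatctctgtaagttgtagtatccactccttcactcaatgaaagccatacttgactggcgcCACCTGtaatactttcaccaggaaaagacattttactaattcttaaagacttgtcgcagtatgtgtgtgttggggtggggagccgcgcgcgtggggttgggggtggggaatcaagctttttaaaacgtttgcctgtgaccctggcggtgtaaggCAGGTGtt

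Tnfrsf13c, chr15:82054811-82055060, minus strand: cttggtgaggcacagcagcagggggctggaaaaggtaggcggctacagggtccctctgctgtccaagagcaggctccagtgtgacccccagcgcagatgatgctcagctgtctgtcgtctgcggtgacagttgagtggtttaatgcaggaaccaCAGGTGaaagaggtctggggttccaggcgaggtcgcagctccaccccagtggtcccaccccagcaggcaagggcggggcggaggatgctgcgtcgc

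Ltb, chr17:35331202-35331383, plus strand: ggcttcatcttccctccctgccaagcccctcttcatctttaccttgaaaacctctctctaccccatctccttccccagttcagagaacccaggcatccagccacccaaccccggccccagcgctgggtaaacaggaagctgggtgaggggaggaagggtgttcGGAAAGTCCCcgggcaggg

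The start of *Tnfrsf19* shown is the upstream of 2 in the table, and the other held no CAGGTG. It carried the E-box 3 times, and *Tnfrsf13c* carried it 1 time. CAGGTG was found before 10 of the 34 members with a promoter (29.4%), against 19.4% of 27025 genes and 17.2% of 32851 promoters of the same length. Of the 10, *Ltb*, *Tnfrsf18* and *Tnfsf10* were lower in pro-B cells by 2-fold or more, so that the letters were found with either direction. The NF-kB consensus was found for *Ltb*, *Tnfrsf8* and *Tnfrsf9* (8.82% of 34), against 4.46% of genes and 3.9% of promoters. The core of the Ebf1 site, TCCCNNGGGA, was found for 0 of the 34 members and for 0.914% of genes and 0.779% of promoters. These are matches of letters in a short window and do not show binding.

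Of the 7 receptors with a death domain, 4 reached a level of at least 1 and 2 of these were lower in pro-B cells by 2-fold or more, against 19.1% of all genes. *Tnfrsf25* among them passed the filter through the pre-pro-B library alone. *Tnfrsf1a*, the main receptor for soluble TNF, gave 20.1 FPKM in the pre-pro-B library (0.550 to 43.0) against 2.15 in the pro-B library (0 to 6.36), 9.39-fold lower with overlapping intervals. *Tnfrsf25*, the receptor of TL1A, had 1.18 in pre-pro-B cells and was listed at 0 in pro-B cells. *Fas*, the receptor of Fas ligand, had 1.87 and 2.44, and *Tnfrsf21* (DR6) had 6.42 and 4.03, both within 2-fold. *Tnfrsf10b*, the receptor of TRAIL, stayed below 1 at 0.449 and 0.889.

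Among receptors with decoy or orphan status, *Tnfrsf26* gave 27.6 FPKM in the pre-pro-B library (5.77 to 49.4). In the pro-B library it gave 8.83 (0.876 to 16.8), 3.13-fold lower. In pre-pro-B cells *Tnfrsf26* was second to *Cd27* among the members. *Tnfrsf22*, *Tnfrsf23* and *Tnfrsf26* are close paralogs, and reads could be divided between them. *Tnfrsf11b*, the soluble decoy of RANKL that stromal cells are known to make, had 0.0106 and 0.0398.

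**Figure D2:**
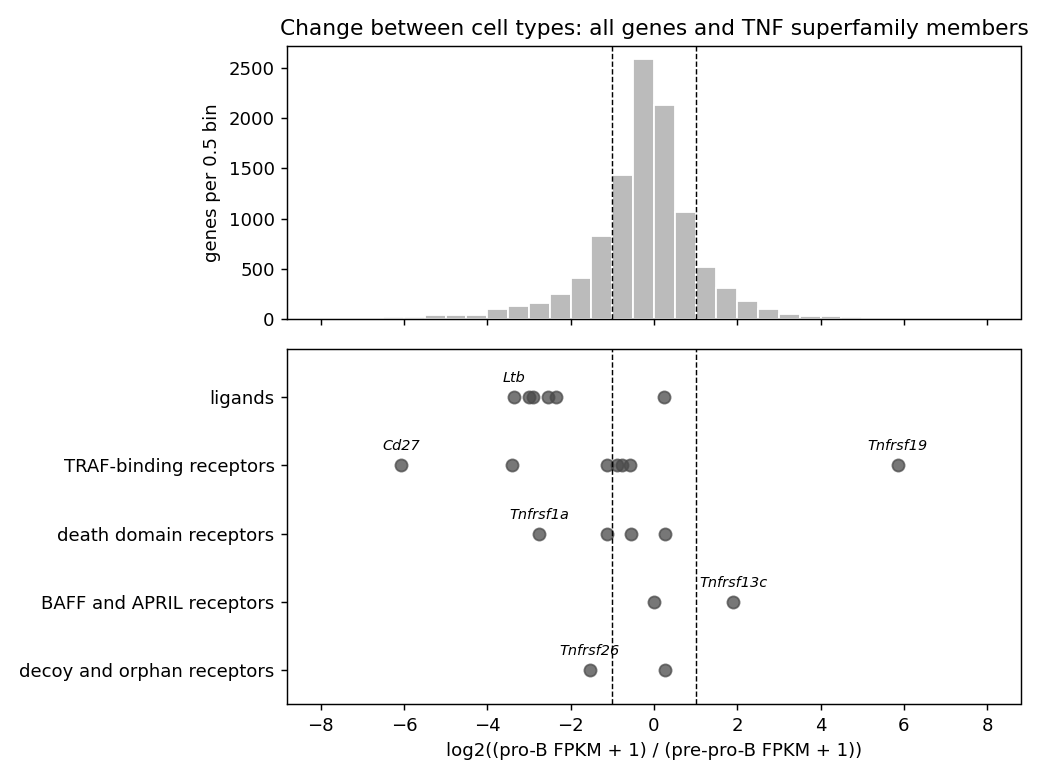
Number of genes (upper panel, in bins of 0.5) by log2 change between the libraries for all 10528 genes, and each of the 21 members by role (lower panel). Dashed lines mark 2-fold, and 5 of 6 ligands lie left of the left line while *Tnfrsf19* and *Tnfrsf13c* lie right of the right line.

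The intervals set a stricter bound. Of 25 member transcripts with a level of at least 1 in a library, 3 had intervals apart and were lower in pro-B cells, against 3.01% of all 12875 such transcripts, and 1 had intervals apart and was higher, against 1.4%. The 3 were those of *Cd27* (NM_001033126), *Tnfsf10* and *Tnfrsf9* (NM_001077509), and the 1 was that of *Tnfrsf19* (NM_013869). All 64 member transcripts had the quantification status OK in both libraries.

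**Figure D3:**
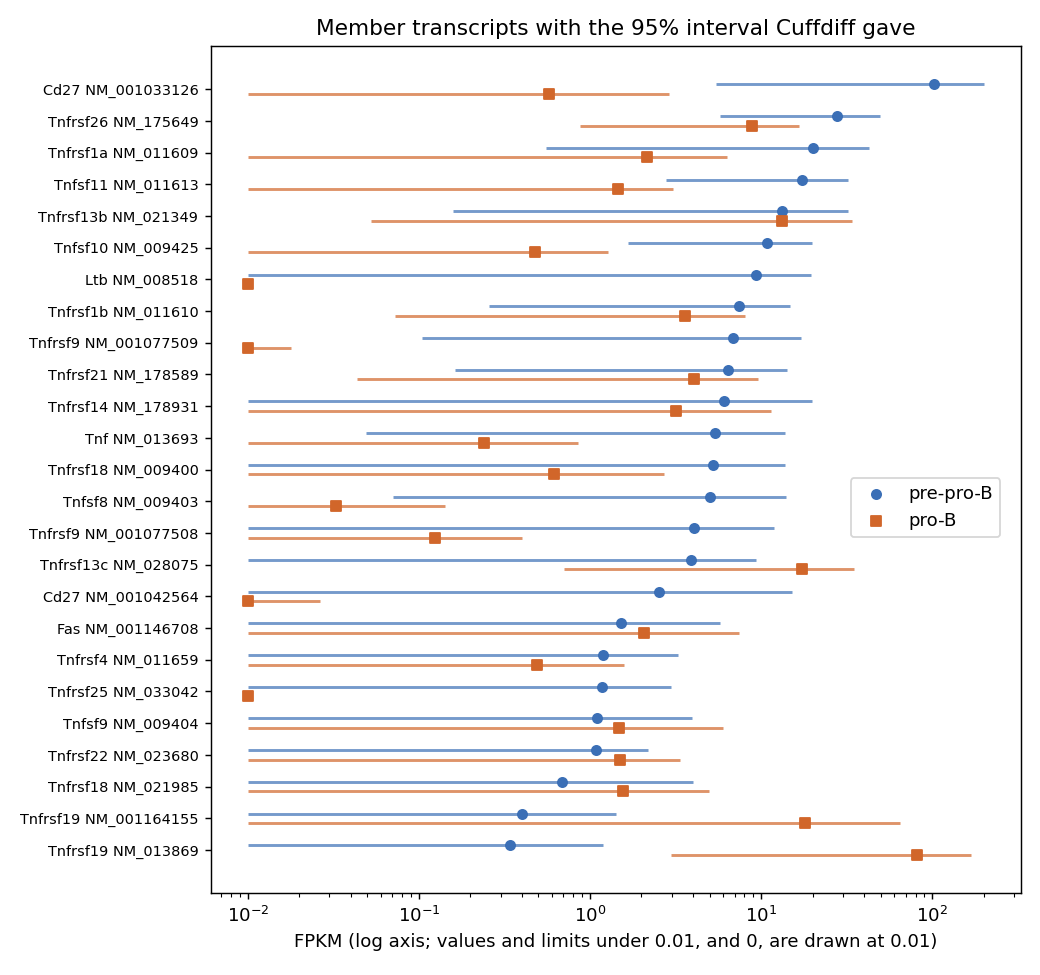
FPKM of the 25 member transcripts that reached 1 in a library (points, log axis) with the 95% interval from Cuffdiff (lines), for pre-pro-B (circles) and pro-B cells (squares). Values and limits under 0.01 are drawn at 0.01. Intervals lie apart for 4 transcripts, and those of *Tnfrsf13b* nearly coincide.

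Within genes, transcripts could differ from the gene total. *Tnfrsf18*, with an FPKM of 5.92 and 2.18 in all, had 1 transcript higher in each library. NM_009400 had 5.23 FPKM in the pre-pro-B library (0 to 13.8) against 0.618 in the pro-B library (0 to 2.70), and NM_021985 had 0.688 (interval 0 to 3.98) and 1.57 (interval 0 to 4.96), with overlap for both. In *Tnfrsf9*, NM_001077509 gave 6.87 and NM_001077508 gave 4.04 in pre-pro-B cells. In pro-B cells NM_001077508 kept 0.123 of the gene's 0.124. In *Fas*, the shorter transcript NM_001146708, of 555 bases, had the higher FPKM, at 1.51 (0 to 5.78) and 2.08 (0 to 7.44). NM_007987, of 1486 bases, had 0.357 and 0.360, with intervals that overlap those of the shorter one. *Fas* thus reached a level of 1 through the shorter transcript.

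Ligands and receptors were then set side by side in the same library, for 23 textbook pairs. Both partners reached a level of at least 1 for 3 pairs in pre-pro-B cells, *Tnf* with *Tnfrsf1a*, *Tnf* with *Tnfrsf1b*, and *Tnfsf9* with *Tnfrsf9*, and for 0 pairs in pro-B cells. Some partners lay near this level. *Tnfsf9* had 1.10 in pre-pro-B cells (0 to 3.95). In the same cells *Tnfsf14* had 0.939 beside *Tnfrsf14* at 6.10. In pro-B cells *Tnfsf10* and *Tnfrsf10b* had 0.476 and 0.889, and *Tnfsf4* and *Tnfrsf4* had 0.620 and 0.490. The pair counts hold for this level and this list of pairs only, and were not repeated under the alternatives. Several abundant members lacked their partner at this level. *Cd27*, at 105 in pre-pro-B cells, stood beside *Cd70* listed at 0, *Tnfsf11* at 17.5 stood beside *Tnfrsf11a* at 0.109, and *Ltb* at 9.31 stood beside *Ltbr* at 0.0786. In pro-B cells *Tnfrsf13c* at 17.4 and *Tnfrsf13b* at 13.3 stood beside *Tnfsf13b* at 0.0359. Ligands made by the OP-9 cells were not measured here.

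The genes that carry the signal inside the cell were read as a separate list. Of 31 such genes (TRAF adaptors, death domain adaptors, kinases, ubiquitin enzymes and inhibitors of apoptosis), 30 reached a level of at least 1, and of these 1 was higher in pro-B cells by 2-fold or more and 4 (13.3%) were lower, with a median log2 change of -0.34. Both shares, the higher one being 3.33%, lay below the 12.2% and 19.1% of all genes, so the genes below are given as single values. The 1 higher gene was *Edaradd*, the adaptor of the ectodysplasin receptor Edar. It gave 0.0872 FPKM in the pre-pro-B library (0 to 0.293) against 21.2 in the pro-B library (0.829 to 43.9), with intervals apart, and its change ranked 75 from the top among all genes, while *Edar* was listed at 0 in both libraries and *Eda* had 0.0123 and 0.0221. The lower genes were *Mlkl* and *Ripk3*, which carry out necroptosis, *Traf5*, and *Ripk1*, which was named after its values were seen. *Mlkl* had an FPKM of 6.18 and 0.621, *Traf5* had 4.59 and 0.905, *Ripk3* had 11.4 and 3.87, and *Ripk1*, a kinase with a death domain, had 30.9 and 12.1. *Traf6* (27.0 and 49.5), *Birc2* (34.0 and 53.1) and *Rbck1* (13.4 and 24.0) had their higher FPKM in pro-B cells, within 2-fold. *Casp8*, the initiator caspase of the pathway and likewise chosen after its values were seen, had 63.8 and 54.0.

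Of 7 genes that process ligands, 6 reached a level of at least 1 and 3 were lower in pro-B cells by 2-fold or more, where 19.1% of all genes were. *Furin*, a proprotein convertase, stood at 17.6 FPKM in the pre-pro-B and 2.59 in the pro-B library, a log2 change of -2.37. The others, named after their values were seen, were *Adam17*, the protease that releases TNF, at 43.8 and 18.0, and *Sppl2b*, an intramembrane protease, at 7.72 and 2.49. *Adam10*, another such protease chosen in the same way, had 23.5 and 33.7, within 2-fold.

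**Figure D4:**
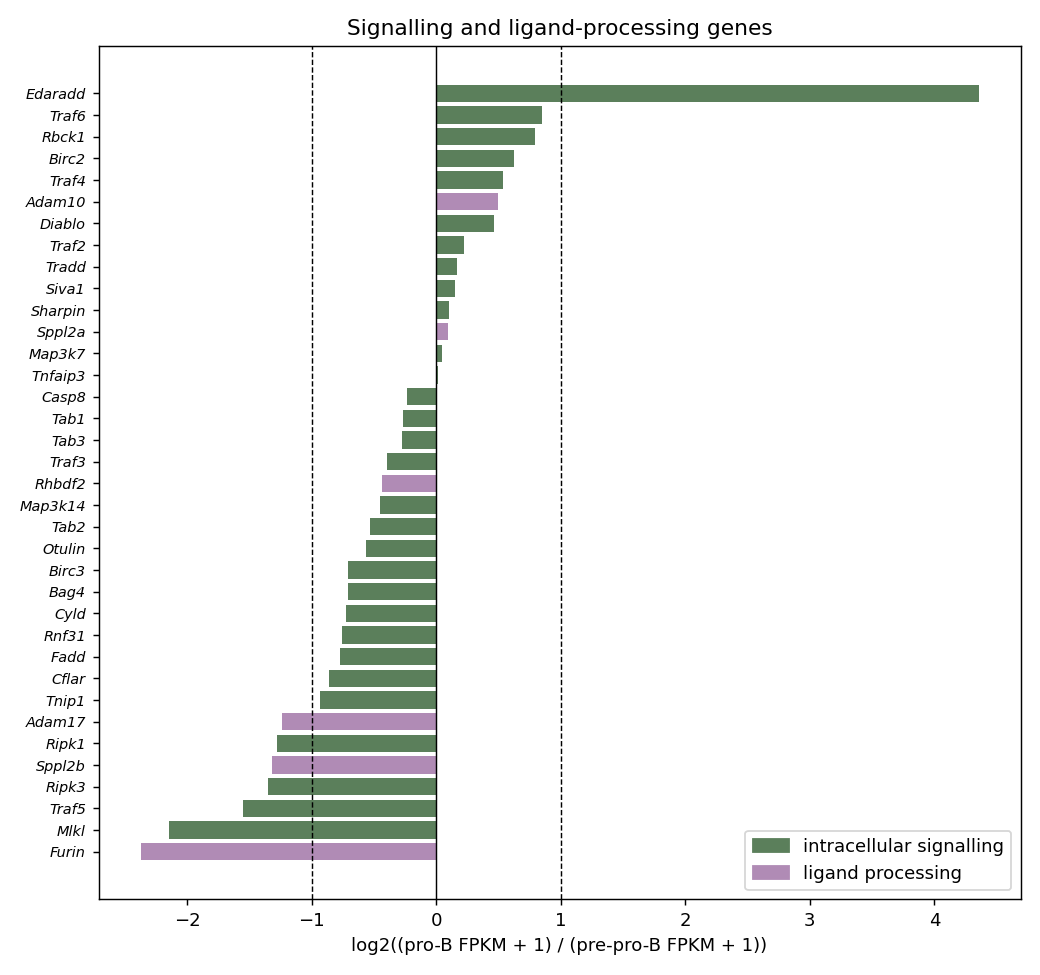
Log2 change from pre-pro-B to pro-B cells for the signaling genes (green) and ligand-processing genes (violet) that reached a level of at least 1 in a library. Bars start at 0 and dashed lines mark 2-fold. Of 30 signaling and 6 processing genes, *Edaradd* lies beyond them to the right and 7 to the left. Of all genes, 12.2% and 19.1% do.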

How the data were processed

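Total RNA depleted of rRNA and of short RNAs was sequenced as strand-specific libraries, 1 per cell type. The authors trimmed the reads, aligned them to mm9 with TopHat (up to 20 alignments per read) and estimated the deposited FPKM and their confidence limits per RefSeq transcript with Cuffdiff 2.1.1, with multi-read and bias correction and no scaling between libraries. A further deposited table with the authors' fold changes, p-values and q-values was not used, nor were its 2 FPKM columns.

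Of 30485 transcripts, 26968 were protein-coding, with 26580 accessions, and 26173 of these matched a gene name in a RefSeq table (GRCm38.p6, names only). FPKM were summed per gene. Positions are from GENCODE vM1 on mm9. Genes named are every member at a level of at least 1, the 4 genes most increased and 4 most decreased of the signaling and processing lists, and the targeted genes, except where stated. The members and lists were chosen with earlier results of these data known. Alternatives were other filters, pseudocounts, scalings, transcript choices and a 3-fold threshold. The code of the fold counts was run on simulated data with changes set well beyond 2-fold, higher levels and little noise. This checks the code only and does not bear on calls near an FPKM of 1. Python 3.11.15, numpy 2.4.6, pandas 2.3.3 and matplotlib 3.10.9 were used. Some marker genes are not reported here.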

Additional observations from a re-analysis of the deposited data

Results flagged for a closer look

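Genes of the superfamily whose current names fall outside the naming rule also gave values above what 3 reads would give at the labelled depth. *Relt*, a receptor formerly numbered in the series of *Tnfrsf19*, stood at 9.59 FPKM in the pre-pro-B and 0.959 in the pro-B library, a log2 change of -2.43. The intervals of its transcript overlap. *Eda2r*, a receptor for ectodysplasin, stood at 0.0684 FPKM in the pre-pro-B and 0.208 in the pro-B library. The read-through gene of *Tnfsf12* and *Tnfsf13*, *Tnfsfm13*, stood at 0.239 FPKM in the pre-pro-B library and was listed at 0 in pro-B cells.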

How the results depend on the processing

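Over 10 alternatives, the count of members lower in pro-B cells lay between 8 of 21 (3-fold threshold) and 14 of 26 (TPM scaling). Of all genes, 10.6% were lower at 3-fold and 23.8% under TPM scaling. The count of members higher was 2 or, under TPM scaling, 3. Of all genes, 6.58% were higher at 3-fold and 12.8% under TPM scaling. The scaling factors of TPM alone shift a log2 ratio by -0.09 and those of median-ratio scaling by 0.09. With the pseudocount, ratios moved unevenly under TPM, that of *Cd27* from -6.06 to -6.89 and that of *Tnfrsf19* from 5.85 to 6.43, and 25 and 19 members reached a level of 1. The median log2 change of the counted members, -1.12 as reported, was -0.22 without a filter (38 members), -1.95 at a level of at least 5 (16 members), -1.40 with a pseudocount of 0.1, -1.29 without a pseudocount, -1.22 under TPM scaling and -1.05 under median-ratio scaling. The median over all genes lay between -0.25 under TPM scaling and -0.05 without a filter. Of the 30 signaling and 6 processing genes counted, 7 were lower in pro-B cells as reported and 2 at 3-fold. Of all genes, 19.1% and 10.6% were. Of 166 values of single members under the alternatives, 157 kept their direction and their side of the threshold and 0 called ones reversed. *Tnfrsf18*, *Tnfrsf25* and *Tnfrsf26* lost their call at 3-fold. *Tnfrsf1b* was called lower under 3 alternatives and *Tnfrsf4* under 2. The log2 change of *Tnfrsf13b*, -0.01 as reported, was 0.08 under median-ratio scaling. No paired analysis was possible because each cell type has 1 library. For the same reason no library could be left out.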
